A study of Mus musculus with 6 samples.

Results

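Axon guidance ligands and receptors were examined in EGFP-Positive and EGFP-Negative stromal cells of the inflamed mouse colon. The genes were chosen by symbol and comprise semaphorins, plexins, neuropilins, ephrins, Eph receptors, Slits, Robo receptors, netrins and Unc5 receptors. Of the 20327 gene symbols counted in each library, 61 matched, of which 33 encode ligands and 28 encode receptors. The study sorted IL-11-expressing and non-expressing fibroblasts to compare their transcriptomes, with 3 libraries per group, and its methods name 3 mice. All 6 libraries came from male C57BL/6 mice aged 9 to 15 weeks with the *Il11-Egfp* genotype, a transgene in which a bacterial artificial chromosome carries *Egfp* within *Il11*. Every mouse had received 1.5% dextran sulfate sodium (DSS) for 5 days, followed by plain water. Colon cells negative for Ter119, CD45, CD31 and EpCAM were collected on day 7 and divided by EGFP fluorescence, so both groups carry the transgene and the colitis, and no untreated animals are among them. According to the methods the EGFP-Positive sort was not fully pure. Libraries were made by 5′Tag-seq, which reads tags near the 5′ side of polyadenylated transcripts, and a value is the number of tags assigned to a gene. Totals ranged from 1022851 to 1169817 tags per library, and 3 tags, taken as the floor of detection, correspond to 2.56 to 2.93 CPM. This floor covers counting error only. The libraries of the groups stood apart in 2 measures. Ribosomal RNA made up 5.61, 5.70 and 6.44% of tags in EGFP-Negative and 7.06, 6.78 and 6.62% in EGFP-Positive replicates 1, 2 and 3. Symbols with a tag numbered 16028, 15845 and 15925 in EGFP-Negative and 15196, 14993 and 15167 in EGFP-Positive replicates 1, 2 and 3. The part of these differences in the gene results was not tested.

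Guidance cues were first studied in growing axons, where they attract or repel the growth cone, and the same proteins act in vessels, in immune cells and in connective tissue. Semaphorins signal through plexins, and most secreted semaphorins also need a neuropilin as co-receptor. Ephrins are anchored in the membrane and meet Eph receptor tyrosine kinases on the neighbouring cell, Slits bind Robo receptors, and netrins bind the DCC, neogenin and Unc5 families. In the intestine, Eph receptors and ephrins are known for positioning epithelial cells along the crypt, and guidance cues of the mesenchyme take part in the routing of enteric nerves and vessels.

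As a check of the labels, *Il11* had 28, 51 and 89 tags in EGFP-Negative replicates 1, 2 and 3, and 1357, 732 and 2658 tags in EGFP-Positive replicates 1, 2 and 3. All EGFP-Positive libraries were above all EGFP-Negative libraries, and the log2 fold change was 4.98 (SE 0.393, edgeR adjusted p = 1.01e-07). Tags of the reporter transcript can be part of these counts. Markers of the cells that the sort was meant to remove were scarce in both groups. *Ptprc*, which encodes CD45, had 0 to 7 tags per library, *Pecam1*, which encodes CD31, had 0 or 1 tag, and *Epcam* had 0 or 1 tag. Of 8 fibroblast markers, all 8 were tested, 2 were called higher (*Col3a1* and *Pdpn*), and *Dcn* was the most abundant. *Lum* was lower in all EGFP-Positive libraries without reaching a fold change of 2 (log2 fold change -0.64, edgeR adjusted p = 0.0378). The summed level of this list, to which *Dcn* contributed the most, was 20920, 20750 and 23560 normalized CPM in EGFP-Negative and 41070, 32860 and 29550 in EGFP-Positive replicates 1, 2 and 3.

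In EGFP-Positive cells, 4 of 7 class 3 semaphorins, the transmembrane semaphorins *Sema5a* and *Sema6a* and both measurable netrins fell, whereas Slits, ephrins, plexins, neuropilins and Robo receptors gave no call in either direction. A test was made for each gene that reached 10 tags in 3 or more libraries, which held for 29 of the 61 guidance genes and for 9334 genes in all. Calls required an edgeR adjusted p under 0.05 together with a fold change over 2. Of the 29 tested guidance genes, 9 were called lower in EGFP-Positive libraries (31.0%), against 6.37% of all tested genes. None was called higher (0 of 29 with edgeR), against 3.44% of all tested genes. With DESeq2 the number called higher was 0 as well, and 3 guidance genes (*Plxna1*, *Robo1* and *Sema4b*) had a higher level at an unadjusted p under 0.05 in edgeR. The called genes were 8 of 18 tested ligands and 1 of 11 tested receptors. The difference between ligands and receptors was not tested. Median log2 fold changes were -0.31 for the tested guidance genes and -0.01 for all tested genes, and they were -0.89 for tested ligands and 0.16 for tested receptors. The median of the guidance genes depended on the filter: it was 0.02 with 10 tags in all 6 libraries and -0.01, -0.03 and -0.12 without EGFP-Negative replicates 1, 2 and 3.

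The filter favours genes that are high in one group. Of the tested guidance genes, 7 reached 10 tags only in EGFP-Negative libraries, and 5 of these 7 were among the 9 called genes, while none passed through EGFP-Positive libraries only. The 5 called ones were *Sema3b*, *Sema3d*, *Sema6a*, *Ntn4* and *Epha3*, and the uncalled ones were *Sema3f* and *Ephb4*. A gene that passes in this way is low in the other group by construction, so the counts describe these genes and are no separate support. With a filter on the mean over all 6 libraries, which does not depend on the group that holds the tags and was chosen after seeing the data, 9 of 27 guidance genes were lower, against 6.19% of all genes. This set lacks *Epha3*, which did not pass that filter, and holds *Sema6b* (edgeR adjusted p = 0.0481). With no filter, 10 of all 61 guidance genes were lower and 2 were higher, against 3.77% and 2.10% of all genes. With at least 10 tags required in all 6 libraries, 3 of 17 were lower, against 3.61% of all genes. The values of EGFP-Positive libraries lay wholly below those of EGFP-Negative libraries for 12 of the 29 tested guidance genes, against 16.7% of all tested genes, and wholly above for 4, against 14.5%. Each of the 9 called genes was in the first set. In bulk libraries, fewer cells of a type and less RNA per cell cannot be told apart.

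**Figure D1:**
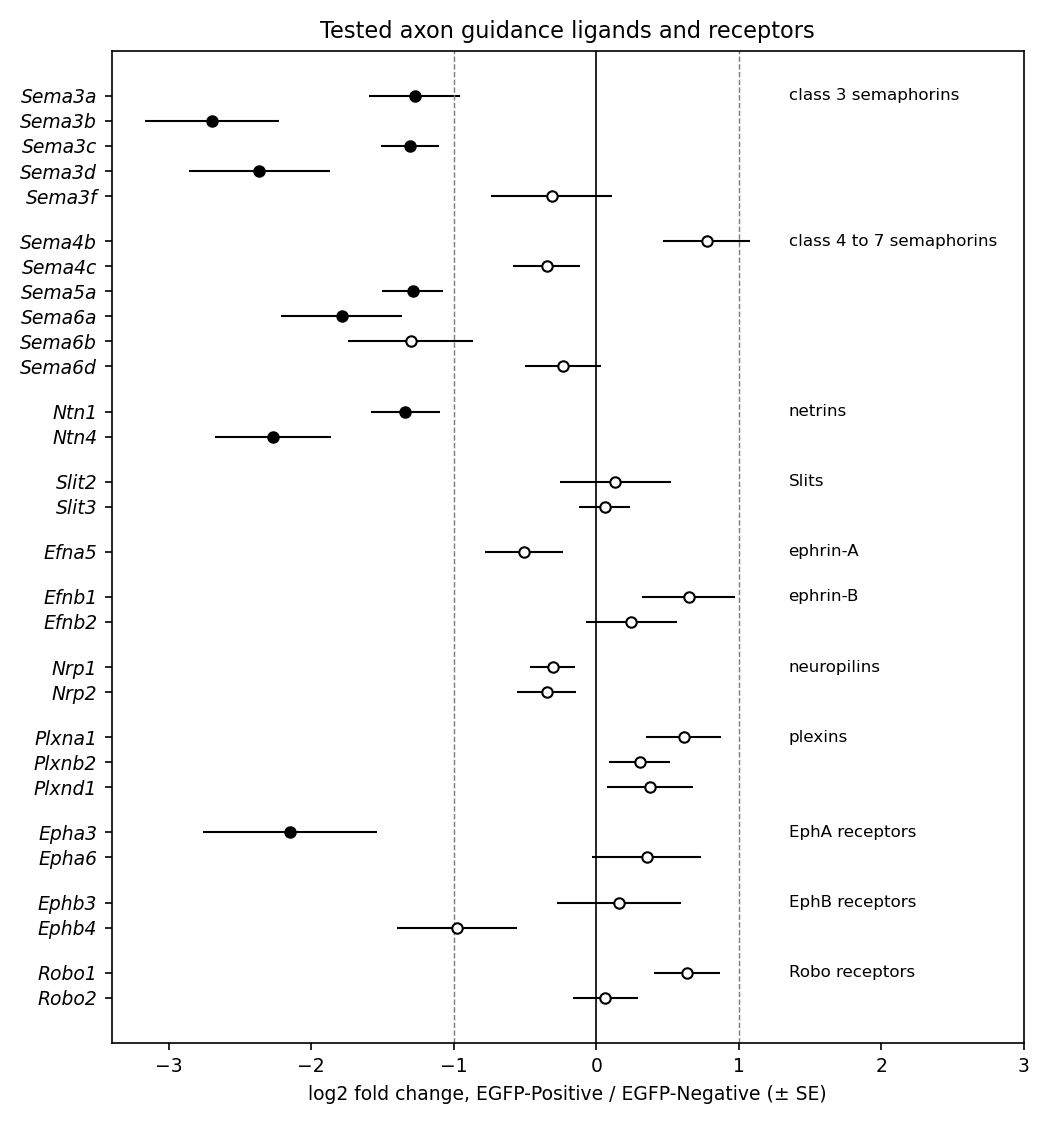
Log2 fold changes of the 29 tested guidance genes, EGFP-Positive over EGFP-Negative, grouped by family (points; bars show the SE; filled points are the 9 called genes; dashed lines mark a fold change of 2). All filled points lie to the left of -1, and 8 of the 9 are ligands.

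Among ligands, class 3 semaphorins, which are secreted, showed the most calls, 4 of 5 tested genes of 7 in the family. Of the called ones, *Sema3b* and *Sema3d* passed the filter only through EGFP-Negative libraries, as did the uncalled *Sema3f*. *Sema3c* (chromosome 5, 17574281 to 17730268 in GRCm38), a ligand of both neuropilins known for guiding cardiac neural crest cells, was the most abundantly tagged gene of this family. It had 134, 134 and 174 tags in EGFP-Negative replicates 1, 2 and 3, and 35, 53 and 72 tags in EGFP-Positive replicates 1, 2 and 3. The highest EGFP-Positive library was well under the lowest EGFP-Negative library. From 132 ± 9.15 CPM its normalized level fell to 53.2 ± 15.8 (mean ± SD of 3 libraries), and the log2 fold change was -1.31 (SE 0.205, edgeR adjusted p = 0.000163).

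*Sema3a* (chromosome 5, 13125414 to 13602565), a repellent of growth cones that acts through neuropilin and A-type plexins, had 35, 48 and 47 tags in EGFP-Negative and 16, 8 and 24 tags in EGFP-Positive replicates 1, 2 and 3. The groups did not overlap, and EGFP-Positive replicate 2 was the lowest library. The log2 fold change was -1.28 (SE 0.318, edgeR adjusted p = 0.00906). This call depended on single libraries. Without EGFP-Positive replicate 2 the log2 fold change was -0.95 (edgeR adjusted p = 0.0597), and without EGFP-Negative replicate 2 it was -1.17 (edgeR adjusted p = 0.0537). Of the short windows near the 5′ end of annotated *Sema3a* transcripts, 1.02% also occur in transcripts of other genes.

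*Sema3b* (chromosome 9, 107597674 to 107609229), also secreted and bound by neuropilins, had 17, 22 and 36 tags in EGFP-Negative and 2, 2 and 6 tags in EGFP-Positive replicates 1, 2 and 3. EGFP-Positive replicates 1 and 2 were under the floor of 3 tags, and replicate 3 was just above it. This was the steepest fall among the called guidance genes, with a log2 fold change of -2.70 (SE 0.472, edgeR adjusted p = 0.000485). *Sema3d* (chromosome 5, 12383385 to 12588948), which is known for its part in patterning the pulmonary veins, had 15, 23 and 45 tags in EGFP-Negative and 1, 5 and 8 tags in EGFP-Positive replicates 1, 2 and 3. EGFP-Negative libraries differed widely among themselves, yet the lowest of them was above the highest EGFP-Positive library. Its log2 fold change was -2.36 (SE 0.497, edgeR adjusted p = 0.00247).

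*Sema3f*, the preferred ligand of neuropilin-2, was the tested class 3 semaphorin without a call. It had 10, 12 and 10 tags in EGFP-Negative and 9, 8 and 6 tags in EGFP-Positive replicates 1, 2 and 3, and the groups overlapped after normalization (log2 fold change -0.31, SE 0.424). The remaining family members did not pass the filter, and both were called only when no filter was used; they are given here after their values were seen. *Sema3e*, which binds plexin D1 directly, had 3, 11 and 15 tags in EGFP-Negative and 1, 1 and 3 tags in EGFP-Positive replicates 1, 2 and 3 (edgeR adjusted p = 0.0208 without a filter). *Sema3g*, described in endothelium, went the other way, with 0, 2 and 0 tags in EGFP-Negative and 4, 9 and 7 tags in EGFP-Positive replicates 1, 2 and 3 (edgeR adjusted p = 0.00728 without a filter). Summed over all 7 genes, class 3 semaphorins had 204, 237 and 268 normalized CPM in EGFP-Negative and 72.1, 87.3 and 120 normalized CPM in EGFP-Positive replicates 1, 2 and 3. The groups did not overlap in this sum, and the EGFP-Positive mean was 39.4% of the EGFP-Negative mean.

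Semaphorins of classes 4 to 7 are bound to the membrane, and 2 of their 6 tested genes fell. *Sema5a* (chromosome 15, 32244810 to 32696341), a transmembrane semaphorin with thrombospondin repeats, had 111, 153 and 105 tags in EGFP-Negative and 46, 40 and 50 tags in EGFP-Positive replicates 1, 2 and 3. EGFP-Positive libraries were close to each other and all under every EGFP-Negative library. Mean normalized levels (± SD of 3 libraries) were 112 ± 29.4 and 45.7 ± 4.42 CPM, with a log2 fold change of -1.29 (SE 0.213, edgeR adjusted p = 0.000286). *Sema6a* (chromosome 18, 47235598 to 47368870), a ligand of A-type plexins, had 19, 17 and 19 tags in EGFP-Negative and 6, 5 and 3 tags in EGFP-Positive replicates 1, 2 and 3. Its groups were also apart, and the log2 fold change was -1.79 (SE 0.426, edgeR adjusted p = 0.00657). *Sema6a* passed the filter only through EGFP-Negative libraries.

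*Sema6b*, another ligand of A-type plexins, stood at the threshold. Its tags were 18, 14 and 18 in EGFP-Negative and 5, 3 and 10 in EGFP-Positive replicates 1, 2 and 3, without overlap after normalization. The log2 fold change was -1.30 (SE 0.438, edgeR adjusted p = 0.0515), and blocking on the replicate number gave an edgeR adjusted p of 0.0348, which is a call. It was also a call with robust dispersion estimates (edgeR adjusted p = 0.0495), a setting chosen after seeing the data, but not in the 6 other conventions of library size, dispersion and order of scaling. It was a call with scaling by library size only (edgeR adjusted p = 0.0426), with the filter on the mean and with no filter plus the block (edgeR adjusted p = 0.0336), the last also chosen after seeing the data. It was no call with DESeq2 (adjusted p = 0.145) or without a filter (edgeR adjusted p = 0.0647). Without EGFP-Positive replicate 3, the highest of its group, the log2 fold change was -1.82 (edgeR adjusted p = 0.0161). *Sema4b* had a log2 fold change of 0.77 (SE 0.303, edgeR adjusted p = 0.0994), with 14 to 18 tags in EGFP-Negative and 21 to 28 in EGFP-Positive libraries. *Sema4c*, a ligand of plexin B2, had 74, 74 and 79 tags in EGFP-Negative and 38, 42 and 81 tags in EGFP-Positive replicates 1, 2 and 3. Here EGFP-Positive replicate 3 lay at the EGFP-Negative level and the other EGFP-Positive libraries did not, so the groups overlapped (log2 fold change -0.35, SE 0.234). The log2 fold change of *Sema6d*, a plexin A1 ligand, was -0.23 (SE 0.266).

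Both netrins that could be tested fell, *Ntn4* after passing the filter only through EGFP-Negative libraries. *Ntn1* (chromosome 11, 68209364 to 68400823), the secreted ligand of DCC, neogenin and Unc5 receptors, had 121, 95 and 136 tags in EGFP-Negative and 28, 32 and 65 tags in EGFP-Positive replicates 1, 2 and 3. EGFP-Positive replicate 3 was the highest of its group and still under the lowest EGFP-Negative library. Normalized levels (mean ± SD of 3 libraries) were 106 ± 14 and 41.4 ± 17.9 CPM, with a log2 fold change of -1.34 (SE 0.241, edgeR adjusted p = 0.000629). *Ntn4* (chromosome 10, 93640681 to 93747207), a netrin of basement membranes that binds laminin chains, had 30, 17 and 30 tags in EGFP-Negative and 5, 4 and 5 tags in EGFP-Positive replicates 1, 2 and 3. The EGFP-Positive libraries were nearly equal and just above the floor, and the log2 fold change was -2.27 (SE 0.409, edgeR adjusted p = 0.000643). *Ntn3* did not pass the filter.

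Slits did not follow this pattern. *Slit3*, a secreted Robo ligand, had 296, 303 and 385 tags in EGFP-Negative and 351, 310 and 247 tags in EGFP-Positive replicates 1, 2 and 3. The groups overlapped, at a mean ± SD of 295 ± 18.6 and 307 ± 68.5 CPM, and the log2 fold change was 0.06 (SE 0.179). *Slit2* ranged from 8 to 19 tags in EGFP-Negative and from 10 to 16 in EGFP-Positive libraries (log2 fold change 0.13, SE 0.39). The sign of both values changed with the scaling or with a library left out. *Slit1* had at most 1 tag per library.

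Ephrins gave no call either. *Efna5*, which is attached to the membrane by a GPI anchor and binds EphA receptors, had 28, 43 and 59 tags in EGFP-Negative and 32, 22 and 27 in EGFP-Positive replicates 1, 2 and 3, with overlapping groups (log2 fold change -0.51, SE 0.277). *Efnb1*, a transmembrane ephrin, had 13, 13 and 16 tags in EGFP-Negative and 22, 16 and 21 tags in EGFP-Positive replicates 1, 2 and 3. Its groups did not overlap after normalization, but the difference did not pass the test (log2 fold change 0.65, SE 0.325, edgeR adjusted p = 0.215). *Efnb2*, the ligand of EphB4, overlapped (log2 fold change 0.25, SE 0.319), and its sign changed without EGFP-Negative replicate 1. Of the other ephrins, *Efna1*, *Efna2*, *Efna3*, *Efna4* and *Efnb3* were under the filter, with at most 6 tags in any library.

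**Figure D2:**
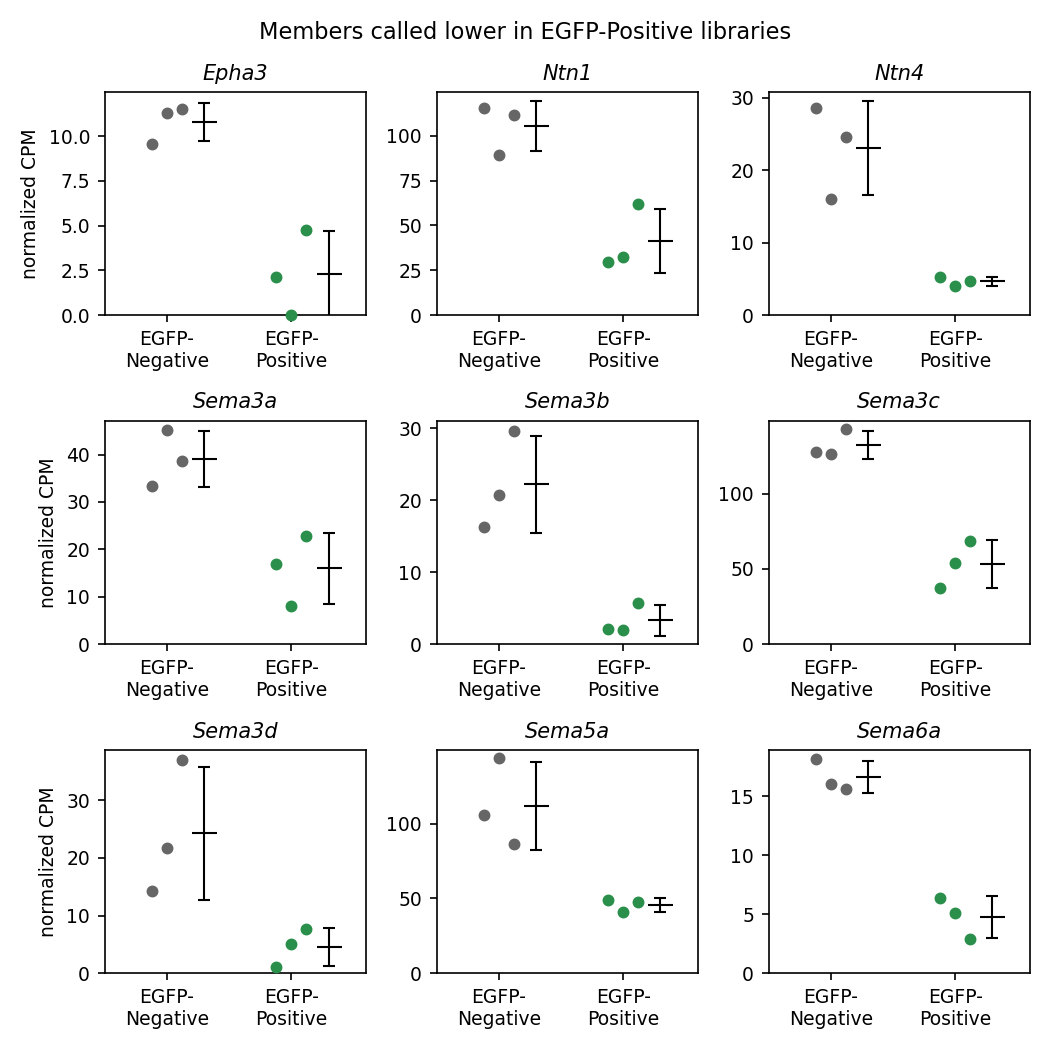
Normalized CPM of the 9 called guidance genes in each library (points; horizontal marks and bars show the mean ± SD of 3 libraries; each panel has its own linear axis from 0). In each panel the EGFP-Positive libraries lie below the EGFP-Negative libraries; for *Sema3c* the means are 132 and 53.2.

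On the receptor side, no tested neuropilin or plexin was called. *Nrp1*, the neuropilin that binds Sema3A and VEGF-A, had 357, 319 and 401 tags in EGFP-Negative and 237, 270 and 273 tags in EGFP-Positive replicates 1, 2 and 3. All EGFP-Positive libraries were lower, by a small margin (mean ± SD 324 ± 20.8 and 262 ± 11.6 CPM). The log2 fold change was -0.30 (SE 0.157, edgeR adjusted p = 0.229), which is not a call. Of its annotated 5′ windows, 4.44% are shared with a microRNA gene. *Nrp2* overlapped between the groups (log2 fold change -0.35, SE 0.206). For *Nrp1* and *Nrp2* together, the summed level was 447, 402 and 397 normalized CPM in EGFP-Negative and 335, 345 and 321 in EGFP-Positive replicates 1, 2 and 3.

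Plexins, the signalling receptors of semaphorins, were represented by 3 tested genes of 9. *Plxna1*, a partner of neuropilins, had 21, 25 and 32 tags in EGFP-Negative and 28, 33 and 46 tags in EGFP-Positive replicates 1, 2 and 3. After normalization the EGFP-Positive libraries were above the EGFP-Negative libraries, without passing the test (log2 fold change 0.61, SE 0.265, edgeR adjusted p = 0.14). *Plxnb2*, a receptor of class 4 semaphorins, and *Plxnd1*, a receptor of Sema3E, overlapped between the groups, with log2 fold changes of 0.31 (SE 0.214) and 0.37 (SE 0.302). *Plxna2*, *Plxna3*, *Plxna4*, *Plxnb1*, *Plxnb3* and *Plxnc1* did not pass the filter. Summed over all 9 plexins, the level was 99.3, 120 and 113 normalized CPM in EGFP-Negative and 124, 130 and 141 in EGFP-Positive replicates 1, 2 and 3.

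*Epha3* (chromosome 16, 63543534 to 63864175), a receptor tyrosine kinase for A-type ephrins, was the receptor that fell. It had 10, 12 and 14 tags in EGFP-Negative and 2, 0 and 5 tags in EGFP-Positive replicates 1, 2 and 3. Its EGFP-Negative libraries only just met the filter, and the groups did not overlap. The log2 fold change was -2.15 (SE 0.611, edgeR adjusted p = 0.0211), the largest SE among the called genes, and with a library left out on the genes of the 6-library filter it ran from -3.24 to -1.59. The call was lost with DESeq2 (adjusted p = 0.0518), without EGFP-Positive replicate 1 (edgeR adjusted p = 0.059) and without EGFP-Positive replicate 2 (edgeR adjusted p = 0.0678). In the same fits on the genes of the 6-library filter, an alternative chosen after seeing the data, it was also lost without EGFP-Negative replicate 2 (edgeR adjusted p = 0.0667) and without EGFP-Negative replicate 3 (edgeR adjusted p = 0.0557).

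The other Eph receptors that were tested gave no call. *Ephb4*, the receptor of ephrin-B2, had 12, 12 and 16 tags in EGFP-Negative and 4, 7 and 7 tags in EGFP-Positive replicates 1, 2 and 3. The groups were apart, but the adjusted p from edgeR was 0.139 (log2 fold change -0.98, SE 0.423). *Epha6* and *Ephb3* overlapped, with log2 fold changes of 0.35 (SE 0.381) and 0.16 (SE 0.435). The sign of the *Ephb3* value changed when EGFP-Negative replicate 3 or EGFP-Positive replicate 2 was left out.

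*Robo1*, a receptor of Slits, had 32, 43 and 66 tags in EGFP-Negative and 52, 74 and 69 tags in EGFP-Positive replicates 1, 2 and 3. Normalized values of EGFP-Positive libraries were above those of EGFP-Negative libraries, at a mean ± SD of 65.3 ± 10 against 41.8 ± 11.9 CPM. The log2 fold change was 0.64 (SE 0.232, edgeR adjusted p = 0.0742), and the fold change stayed under the threshold of 2. *Robo2* had 89, 105 and 60 tags in EGFP-Negative and 77, 92 and 71 tags in EGFP-Positive replicates 1, 2 and 3, and the groups overlapped (log2 fold change 0.06, SE 0.229), with a sign that depended on the scaling and on single libraries. The netrin receptors *Unc5a*, *Unc5b* and *Unc5c* all stayed under the filter, with 0 to 12 tags per library.

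In all, 32 of the 61 guidance genes were not tested, 15 ligands and 17 receptors. Their totals over the 6 libraries ranged from 1 to 63 tags (median 17), and 9 of them had at most 3 tags in every library. The genes with the most tags among them were *Epha7*, *Epha4* and *Sema4a*. *Epha7*, an Eph receptor, had 6, 9 and 4 tags in EGFP-Negative and 8, 21 and 15 tags in EGFP-Positive replicates 1, 2 and 3, with overlapping groups. Without a filter it was called higher (log2 fold change 1.38, edgeR adjusted p = 0.0377). *Epha4*, which binds ephrins of both types, had 16, 9 and 14 tags in EGFP-Negative and 3, 5 and 6 tags in EGFP-Positive replicates 1, 2 and 3. *Sema4a*, a membrane-bound semaphorin, had 14, 18 and 7 tags in EGFP-Negative and 4, 3 and 6 tags in EGFP-Positive replicates 1, 2 and 3. For both of these, all EGFP-Positive libraries were lower, and neither was called without a filter (edgeR adjusted p = 0.13 and 0.0854).

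Genes of the same pathways outside the symbol rule were called in both directions. Of 66 such genes found in the libraries, 45 were tested, of which 4 were called higher and 2 lower, where the shares among all tested genes are 3.44% and 6.37%, and the median log2 fold change of the tested genes was -0.03. Among 22 further cues, receptors and co-receptors, *Chl1*, an adhesion molecule and co-receptor of semaphorins, had 163, 186 and 214 tags in EGFP-Negative and 430, 520 and 394 tags in EGFP-Positive replicates 1, 2 and 3. It was higher in every EGFP-Positive library (log2 fold change 1.42, SE 0.174, edgeR adjusted p = 1.17e-05). *Draxin*, a secreted inhibitor of netrin signalling, had 13, 1 and 2 tags in EGFP-Negative and 26, 31 and 14 tags in EGFP-Positive replicates 1, 2 and 3. EGFP-Negative replicate 1 stood close to the lowest EGFP-Positive library, and the log2 fold change was 2.28 (SE 0.57, edgeR adjusted p = 0.00921). With a library left out on the genes of the 6-library filter, the value ran from 1.83 to 4.07. This call was lost with DESeq2 (adjusted p = 0.154) and without EGFP-Negative replicate 2 (edgeR adjusted p = 0.0636), and on the genes of the 6-library filter also without EGFP-Positive replicate 2 (edgeR adjusted p = 0.053).

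*Flrt2*, a ligand of Unc5 receptors and latrophilins, had 62, 38 and 84 tags in EGFP-Negative and 18, 10 and 29 tags in EGFP-Positive replicates 1, 2 and 3. It fell without overlap (log2 fold change -1.52, SE 0.321, edgeR adjusted p = 0.00256). *Rgmb*, a ligand of neogenin, had 57, 65 and 72 tags in EGFP-Negative and 25, 37 and 24 tags in EGFP-Positive replicates 1, 2 and 3. Its groups were apart and its log2 fold change of -1.01 (SE 0.237, edgeR adjusted p = 0.00593) lay at the fold-change threshold, which it missed with RLE scaling (-0.99), with no filter (-0.97), with DESeq2 and in 6 of 7 other conventions of library size, dispersion and order of scaling that were also run. The value was also under the threshold without EGFP-Negative replicate 2 (-0.98), without EGFP-Positive replicate 1 (-0.94) and without EGFP-Positive replicate 3 (-0.85), and in 4 of 6 fits with a library left out on the genes of the 6-library filter. The netrin receptors *Neo1* and *Dcc* differed in abundance. *Neo1* overlapped between the groups (log2 fold change -0.12, SE 0.242), and *Dcc* had 3 tags over all libraries.

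Of 44 intracellular partners, 33 were tested, and 2 were called, both higher. *Mical2*, an oxidase of actin downstream of plexins named after its values were seen, had 31, 44 and 34 tags in EGFP-Negative and 27, 6 and 12 tags in EGFP-Positive replicates 1, 2 and 3, with overlapping groups. It was called lower with the replicate block (log2 fold change -1.16, edgeR adjusted p = 0.00869) and without a filter (edgeR adjusted p = 0.0123), but not without the block (log2 fold change -1.11, SE 0.391, edgeR adjusted p = 0.0654). *Vav3*, an exchange factor downstream of Eph receptors, had 5, 11 and 17 tags in EGFP-Negative and 41, 54 and 26 tags in EGFP-Positive replicates 1, 2 and 3. The groups did not overlap (log2 fold change 2.04, SE 0.374, edgeR adjusted p = 0.000765). *Rhod*, a small GTPase that binds plexins, had 7, 9 and 6 tags in EGFP-Negative and 22, 15 and 14 tags in EGFP-Positive replicates 1, 2 and 3. It was higher in each EGFP-Positive library (log2 fold change 1.36, SE 0.408, edgeR adjusted p = 0.0287) and passed the filter only through that group. Its call was lost with DESeq2 (adjusted p = 0.0791) and in all 3 fits without an EGFP-Negative replicate (edgeR adjusted p = 0.0879, 0.0532 and 0.113). On the genes of the 6-library filter it was lost without EGFP-Positive replicate 1 (edgeR adjusted p = 0.137) and without EGFP-Negative replicates 1 and 3, and kept without EGFP-Negative replicate 2.

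Markers of other stromal cells fell beside the guidance ligands. All 8 smooth muscle markers were called lower. Their summed level was 2264, 2768 and 3499 normalized CPM in EGFP-Negative and 90.1, 153 and 310 in EGFP-Positive replicates 1, 2 and 3, which is 6.49% of the EGFP-Negative mean, and *Myh11* was the most abundant. *Cnn1* had 0, 1 and 5 tags and *Myocd* 0, 0 and 2 tags in EGFP-Positive replicates 1, 2 and 3, at or near 0. Of 8 pericyte markers, 7 were tested and 4 were called lower (*Rgs5*, *Cspg4*, *Notch3* and *Ndufa4l2*). The list summed to 2652, 2276 and 2055 normalized CPM in EGFP-Negative and 1072, 896 and 795 in EGFP-Positive replicates 1, 2 and 3, with *Rgs5* as the most abundant gene. *Notch3* had 4, 0 and 7 tags in EGFP-Positive replicates 1, 2 and 3. By contrast, the pericyte channel genes *Kcnj8* (log2 fold change 0.71, edgeR adjusted p = 0.0394) and *Abcc9* (0.66, edgeR adjusted p = 0.0167), which are part of this sum, were higher without reaching a fold change of 2. All EGFP-Positive libraries were above the EGFP-Negative libraries for *Abcc9*, and the groups overlapped for *Kcnj8*.

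All 3 markers of interstitial cells of Cajal were called lower, with *Ano1* as the most abundant. This list summed to 271, 168 and 258 normalized CPM in EGFP-Negative and 21.2, 20.3 and 50.5 in EGFP-Positive replicates 1, 2 and 3. *Kit* had 0, 0 and 7 tags in EGFP-Positive replicates 1, 2 and 3. Among markers of enteric glia and Schwann cells, *Gfap* was called lower, with 22, 23 and 26 tags in EGFP-Negative and 1, 0 and 1 tags in EGFP-Positive replicates 1, 2 and 3. *Sox10*, *S100b* and *Erbb3* had 0 tags in all EGFP-Positive libraries, and the sum of this list is not used here. The part of these cell types in the lower guidance ligands was not tested.

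Other lists were at low levels throughout. Vascular endothelial markers summed to 45.8, 35.8 and 45.2 normalized CPM in EGFP-Negative and 18, 12.2 and 9.54 in EGFP-Positive replicates 1, 2 and 3. Most of these tags came from *Tek*, which was called lower, and *Pecam1*, *Kdr*, *Tie1* and *Egfl7* had at most 3 tags in any library. Epithelial markers summed to 31.5, 24.5 and 45.2 normalized CPM in EGFP-Negative and 9.54, 13.2 and 21.9 in EGFP-Positive replicates 1, 2 and 3, mostly from *Lgals4*, which was called lower. Mesothelial markers, led by *Wt1*, summed to 13.4, 4.71 and 15.6 normalized CPM in EGFP-Negative and to 0, 0 and 1.91 in EGFP-Positive replicates 1, 2 and 3. List sums for lymphatic endothelium (most abundant *Prox1*), enteric neurons (*Tubb3*) and leukocytes (*Cd68*) overlapped between the groups, although the neuronal marker *Uchl1* had 1, 4 and 10 tags in EGFP-Negative replicates 1, 2 and 3 and 0 in all EGFP-Positive libraries. No gene of these lists was tested, with sums of at most 11.5, 18.1 and 31.8 normalized CPM in any library.

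**Figure D3:**
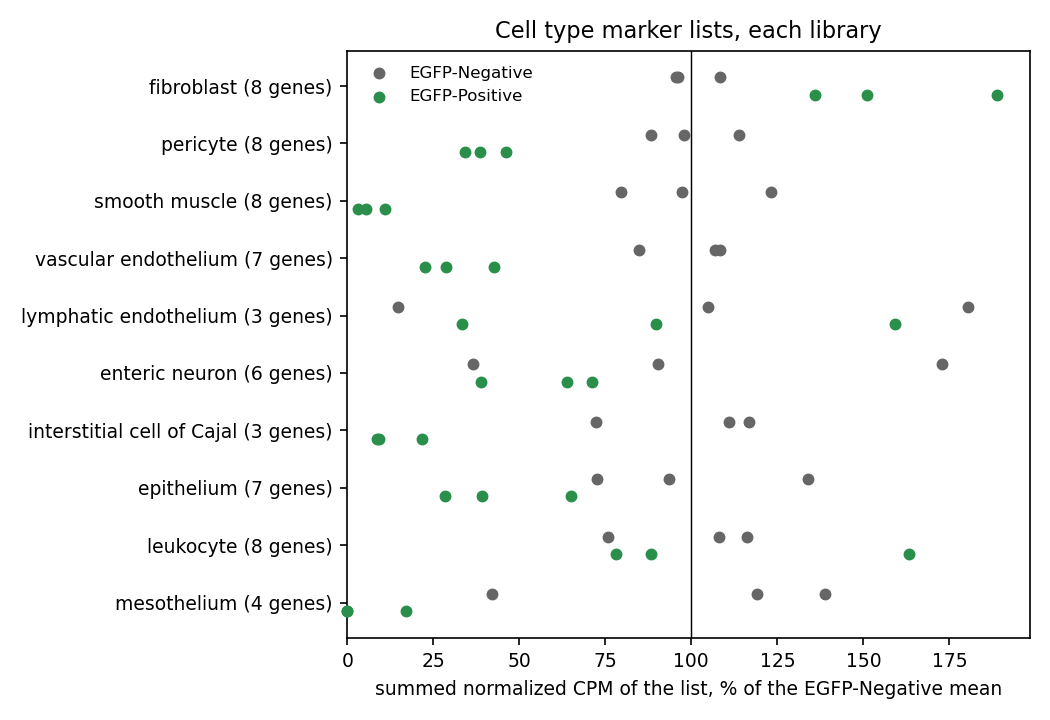
Summed normalized CPM of 10 cell type marker lists in each library, as a percentage of the mean of the EGFP-Negative libraries (grey points, EGFP-Negative; green points, EGFP-Positive; linear axis from 0). Smooth muscle markers in EGFP-Positive libraries average 6.49% of the EGFP-Negative mean and fibroblast markers 159%.

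Several of the class 3 semaphorin genes are neighbours. *Sema3d*, *Sema3a*, *Sema3e* and *Sema3c* lie in this order on the plus strand of chromosome 5, from 12383385 to 17730268 in GRCm38, a stretch of 5.35 Mb. In this stretch, which was examined after the values were seen, 12 counted genes lie wholly inside and 5 of them were tested. The 3 tested semaphorins were lower, *Hgf*, the ligand of the MET receptor, was higher (log2 fold change 2.29, SE 0.17, edgeR adjusted p = 5.16e-08), and *Cacna2d1*, a calcium channel subunit, was not called (log2 fold change 0.31, SE 0.165, edgeR adjusted p = 0.249). Neighbouring genes thus moved in opposite directions, with *Hgf* between *Sema3e* and *Sema3c*.

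To set the promoters of these neighbours side by side, the 250 bases before the start given by RefSeq are printed from RefSeq (build GRCm38.p6, plus strand, 5′ to 3′) for the 3 that fell. RefSeq starts differ from the GENCODE gene limits given above, and the windows of *Sema3a* and *Sema3c* lie inside those limits, so these are not the only starts annotated. Promoters of 53 of the 61 guidance genes were matched. Capitals mark the letters of any of 6 motifs searched on both strands, and none of the marked matches overlaps another. *Sema3d* is at chr5:12382916-12383165, *Sema3a* at chr5:13396534-13396783 and *Sema3c* at chr5:17574566-17574815.
Sema3d: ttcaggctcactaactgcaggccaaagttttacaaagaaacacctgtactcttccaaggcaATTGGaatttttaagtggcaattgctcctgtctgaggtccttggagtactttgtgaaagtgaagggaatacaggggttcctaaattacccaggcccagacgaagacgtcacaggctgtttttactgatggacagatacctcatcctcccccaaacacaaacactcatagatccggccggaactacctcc
Sema3a: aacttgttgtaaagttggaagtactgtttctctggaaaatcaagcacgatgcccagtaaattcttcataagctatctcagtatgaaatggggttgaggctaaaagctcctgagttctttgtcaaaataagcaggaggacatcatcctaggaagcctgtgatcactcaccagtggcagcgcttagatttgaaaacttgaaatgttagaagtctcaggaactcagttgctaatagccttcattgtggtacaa
Sema3c: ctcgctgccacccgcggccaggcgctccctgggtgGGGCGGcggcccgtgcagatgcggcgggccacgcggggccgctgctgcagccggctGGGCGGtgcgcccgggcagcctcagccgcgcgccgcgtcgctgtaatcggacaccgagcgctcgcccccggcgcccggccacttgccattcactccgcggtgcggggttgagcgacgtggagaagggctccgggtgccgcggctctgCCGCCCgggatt
The *Sema3c* sequence is rich in G and C (78.4%, with 39 CG pairs) and holds the GC box GGGCGG 3 times, a motif found in 32.7% of 32851 promoter windows of the same length. *Sema3d* (46.8% G and C) holds the CCAAT box once, as ATTGG on the printed strand, which 33.9% of the windows hold. *Sema3a* (40.8% G and C) holds none of the motifs, and the median over all windows is 52.4%. The AP-1 site TGACTCA (4.46% of windows), the STAT site TTCCNGGAA (0.913%), the E-box CACGTG (6.02%) and the TATA box TATAAA (12.4%) were in none of these 3 sequences. A match is only a match of letters and was not tested for function.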

How the data were processed

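RNA of 3 EGFP-Negative and 3 EGFP-Positive libraries was sequenced by 5′Tag-seq. The authors trimmed reads with Cutadapt 1.18, aligned them to mouse RefSeq RNA (mm10) with Bowtie2 2.2.5, keeping one orientation, and deposited tag counts per gene symbol without normalization. The sentence of the methods on 10 tags was read as keeping genes that reach it. Genes reaching 10 tags in 3 or more libraries were scaled by TMM and compared in R 4.3.3 with edgeR 4.0.16 (glmQLFit, glmQLFTest), with Benjamini-Hochberg adjustment over all 9334 tested genes. Library size was the sum over tested genes, TMM followed the filter, and dispersion was not robust.

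Of these last choices, the methods leave library size and the kind of dispersion unsaid, and they describe the exclusion of low genes before normalization. The first fit used the sum over all genes and gave 322 genes higher and 588 lower. All 8 combinations of library size, dispersion and order of scaling were then run, with 311 to 344 genes called higher and 541 to 595 lower, and the one that gave the counts of earlier results of these data (321 and 595) was adopted. The count of guidance genes called lower was 9 in 6 of the 7 others and 10 in the other.

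Normalized CPM uses the TMM-scaled totals of tested genes. SE is the size of the log2 fold change divided by the square root of F. Same-numbered libraries deviated together from their group means (r = 0.23, 0.185 and 0.264 over 5063 genes averaging 30 or more tags), so the number, taken from the labels, was taken to pair the libraries and was a block in an alternative fit. DESeq2 was version 1.42.0. Positions are from GENCODE M21 (GRCm38), and shared 5′ windows are 50-nt windows of the first 300 nt.

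The members and gene lists were chosen with earlier results of these data known. Every tested guidance gene is named, as are the 3 untested ones with the most tags, called pathway genes, and for marker lists the most abundant gene and defining genes near 0. *Sema3e*, *Sema3g*, *Hgf*, *Cacna2d1*, *Neo1*, *Dcc*, *Lum*, *Uchl1*, *Mical2* and other untested genes outside this rule were chosen after their values were seen. *Dscam*, *Cdh5*, *Flt4*, *Mmrn1* and *Cdh1* of the lists were not found and not analysed here.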

Additional observations from a re-analysis of the deposited data

How the results depend on the processing

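All 9 called guidance genes kept their direction in every fit. With all 6 libraries, only *Epha3* lost its call, with DESeq2; 8 of the 9 kept it in each fit that tested them. With single libraries left out, *Sema3a* and *Epha3* lost theirs in some fits.

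The count of guidance genes called lower, 9, became 3 with 10 tags required in all 6 libraries and 3 to 10 with a library left out (22 guidance genes pass the filter without an EGFP-Negative library and 29 without an EGFP-Positive one). Without a filter, 2 were higher. For all genes, 638 were higher by adjusted p alone (321 with the fold threshold), 256 were lower with 10 tags in all 6 libraries (595 in the reported fit), and 341 to 579 with a library left out. Pathway genes called higher, 4, became 2 with DESeq2 and 1 with 10 tags in all 6 libraries. Pathway genes called lower, 2, became 1 with RLE, 1 with DESeq2, 5 without a filter and 1 to 3 with a library left out.

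The replicate block gave 337 genes higher and 648 lower, and 10 guidance genes lower, adding *Sema6b*, and 3 pathway genes lower, adding *Mical2*. It changed no other call of a named gene.

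With scaling by library size only, *Robo2* was -0.0133 and *Slit3* -0.0342. With a library left out, log2 fold changes ranged from -0.0362 to 0.50 for *Efnb2*, -0.25 to 0.52 for *Ephb3*, -0.20 to 0.27 for *Robo2*, -0.12 to 0.35 for *Slit2* and -0.0896 to 0.22 for *Slit3*. The cause was not tested.

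The following settings were chosen after seeing the data. On the genes of the 6-library filter with a library left out, reversed values were -0.0168 for *Efnb2* (without EGFP-Negative replicate 1), -0.0214 and -0.25 for *Ephb3* (without EGFP-Negative replicate 3 and EGFP-Positive replicate 2), -0.19 and -0.0473 for *Robo2* (the same libraries), -0.10 and -0.0141 for *Slit2* (without EGFP-Negative replicate 2 and EGFP-Positive replicate 2), and -0.0922 for *Slit3* (without EGFP-Positive replicate 1). There, 1 pathway gene was lower without EGFP-Negative replicate 2 and 1 without EGFP-Positive replicate 3. Without a filter and with the replicate block, 2 guidance genes were higher, 11 were lower and 4 pathway genes were lower. Pathway genes called lower were 1 in 6 of the 7 other conventions of library size, dispersion and order of scaling, where *Rgmb* fell under the fold threshold. Some called genes were near the floor of 3 tags in EGFP-Positive libraries, such as *Epha3* with 2, 0 and 5 tags in replicates 1, 2 and 3. The effect of depth on these genes was not tested.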
